A study of Mus musculus with 4 samples.

Results

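The genes described here encode the nuclear-made parts of oxidative phosphorylation. They were chosen by name, as every gene symbol in the count tables that begins with *Nduf* followed by a, b, c, s or v, equals *Sdha*, *Sdhb*, *Sdhc* or *Sdhd*, or begins with *Uqcr*, *Cox4* to *Cox8* or *Atp5*. The rule gave 92 of 23420 genes, and 87 of them had at least 10 counts in at least 2 libraries and were tested. By function, 82 encode subunits or tissue isoforms of the 5 complexes, and the other 10 encode assembly factors or associated proteins that share the name.

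Oxidative phosphorylation takes place in the inner mitochondrial membrane. Complexes I and II feed electrons from NADH and succinate to ubiquinone, complex III passes them through cytochrome c to complex IV, which reduces oxygen, and complex V, the ATP synthase, uses the resulting proton gradient to make ATP. Neurons depend heavily on this route for ATP, and the genes are known for promoters bound by NRF1 and by the ETS factor GABP. No gene encoded by mitochondrial DNA was present in the tables, so the subunits made inside the mitochondrion were not analysed here.

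Gene expression was measured by RNA-seq in cervical motor neurons (MNs) derived from mouse embryonic stem cells (mESCs) of the E14 line. The 2 groups were wild type (WT, 2 libraries) and *Patz1* -/- (KO, 2 libraries), the latter lacking PATZ1, a zinc finger protein that binds G-rich DNA. Cells of both genotypes grew through embryoid bodies and received retinoic acid and the smoothened agonist SAG, so the libraries hold whole cultures and not sorted MNs, and in such bulk samples fewer cells of a type and less RNA per cell cannot be told apart. The sample titles name mESCs while the source and cell type fields name MNs, and the clone behind each KO library is not given in the labels, so differences between clones and the effect of genotype cannot be told apart. Libraries held 14769104 to 23881522 assigned reads. *Patz1* itself stood at 91.5 and 94.2 CPM in the WT libraries and 47.6 and 42.5 CPM in the KO libraries (log2 fold change -1.04 ± 0.10 (SE), adjusted p = 9.93e-08, edgeR quasi-likelihood test with Benjamini-Hochberg adjustment), where CPM is the count per 1000000 reads of the TMM-scaled library. Reads still mapped to the gene in both KO libraries.

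The cultures differed in cell type markers. For comparison, 24.0% of all 14394 genes tested were higher and 23.4% lower in KO at an adjusted p below 0.05. Among 7 motor neuron markers 6 were higher in KO, and their summed level was 537 to 576 CPM in WT and 784 to 860.0 CPM in KO. Of 5 progenitor markers 2 were lower and 1 was higher (781 to 803 CPM in WT, 552 to 573 CPM in KO), of 6 endoderm markers 5 were lower (30.3 to 35.7 CPM against 3.22 to 5.24 CPM) and of 5 smooth muscle and mesenchyme markers 4 were lower (60.1 to 68.1 CPM against 13.3 to 14.02 CPM). Of 4 germline markers 1 was lower, with summed levels of 10.6 to 11.8 CPM across all libraries. The 2 pluripotency markers summed to at most 5.16 CPM, and 9 cardiac and skeletal muscle markers to at most 2.98 CPM, with *Ckm* at 0 in all 4 libraries. The part of these shifts in cell composition in the values below was not tested.

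Respiratory genes as a group did not move in 1 direction between WT and *Patz1* KO MNs. Of the 87 genes tested, 15 were higher and 17 were lower in KO at an adjusted p below 0.05, and 55 were not called (edgeR quasi-likelihood test, Benjamini-Hochberg adjustment over all genes). The share of members called was 36.8%, below the 47.4% called among all 14394 genes tested, of which 24.0% were higher and 23.4% lower. The median log2 fold change of the members was -0.01, against 0.00 over all genes, and their median absolute change was 0.19 against 0.34. A change of 1 or more on the log2 scale was seen for 13.7% of all genes and for 1 member, *Cox4i2*. That gene passed the count minimum through the KO libraries alone, which favours a higher KO value, so its place among the 15 higher genes is no support. WT and KO libraries did not overlap for 49 members, 22 higher and 27 lower, while 73.9% of all genes did not overlap. The 22 include *Cox4i2* and *Ndufa4l2*, which both passed the count minimum through the KO libraries alone, so their place there is no support either. Among the 55 members not called, 49 had a 95% interval of the log2 fold change that lay within 0.5 on either side of 0. Members were abundant transcripts, with a median WT level of 124 CPM against 24.1 CPM over all genes tested. A further limit is shared sequence. At least 20% of the 50-base stretches occurred in other annotated transcripts for 19 members, counting matches on either strand here and below. Of the 18 tested among them 8 were called (2 higher, 6 lower), beside 24 of the other 69 (13 higher, 11 lower). The DESeq2 Wald test called 18 members, 10 higher and 8 lower, and 32.4% of the 15805 genes to which it gave an adjusted p. The calls it did not make were those of *Ndufs6*, *Ndufaf3*, *Ndufaf5*, *Sdha*, *Uqcrc2*, *Uqcr10*, *Cox6b1*, *Cox6c*, *Cox4i2*, *Cox6b2*, *Atp5h*, *Atp5o*, *Atp5g3* and *Atp5k*.

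**Figure D1:**
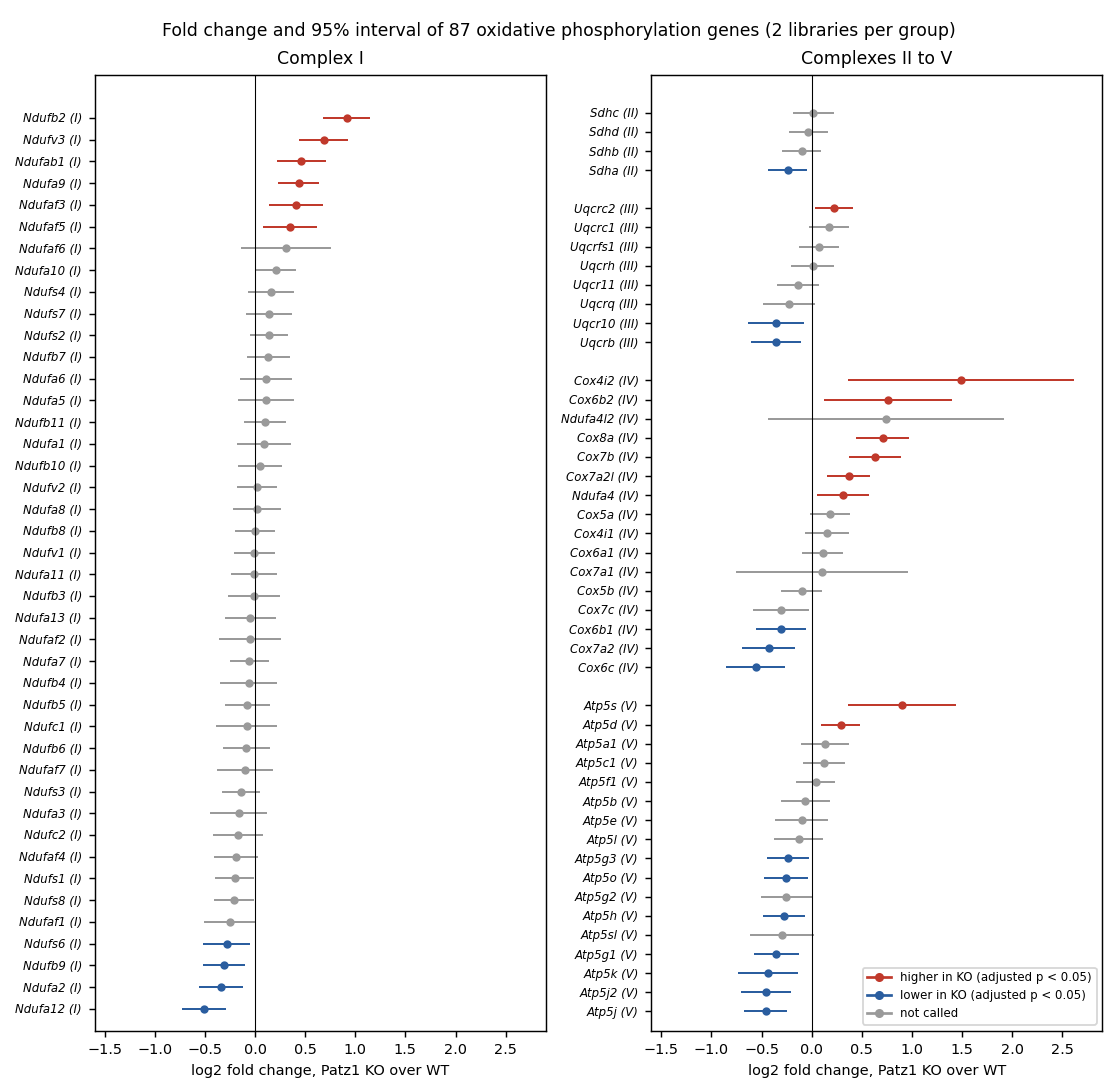
Log2 fold change (*Patz1* KO over WT) of each of the 87 genes tested, with its 95% interval, sorted within each complex. Points in red were higher (15 genes), points in blue were lower (17 genes) and grey points were not called, and each complex with more than 4 tested genes holds calls in both directions.

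The 2 KO libraries differed from each other for these genes more than the WT libraries did. The summed level of the 82 subunit and isoform genes was 14234 and 13561 CPM in the WT libraries, 12649 CPM in KO replicate 1 and 14684 CPM in KO replicate 2, so the KO libraries lay on both sides of WT. Of the 87 members tested, 76 were higher in KO replicate 2 than in KO replicate 1 (87.4%, against 47.5% of all genes tested), with a median log2 difference of 0.24. The difference was larger in short transcripts. All 48 members with under 1000 exon bases were higher in KO replicate 2, with a median log2 difference of 0.34, and the 921 tested genes of that length had a median of 0.27. The 29 members from 1000 up to 2000 bases had a median difference of 0.12, and the 9 members from 2000 up to 4000 bases 0.02. The 1 longer member, *Atp5g1* with 4778 bases, differed by 0.305, against a median of -0.08 over all genes of 4000 bases or more. Between the WT libraries the median over the members was -0.08.

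**Figure D2:**
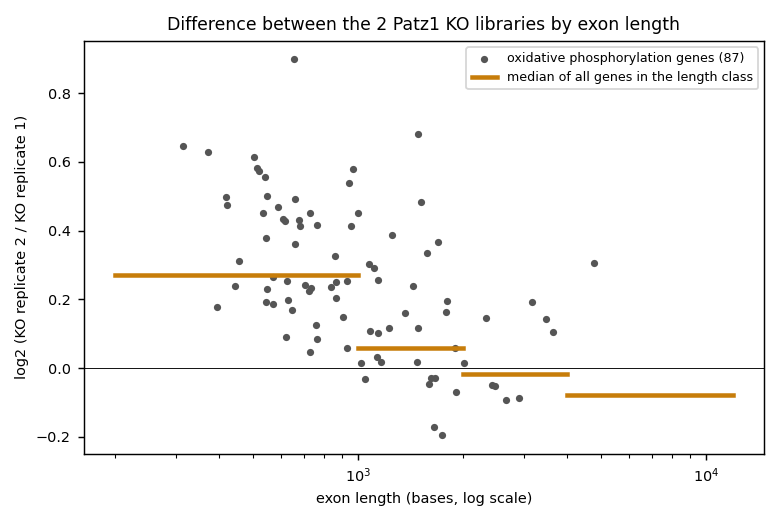
Log2 ratio of KO replicate 2 to KO replicate 1 (CPM + 0.5) against exon length for the 87 genes, with orange lines at the median of all tested genes in 4 length classes. The 48 members shorter than 1000 bases all lie above 0, and the median of all genes falls from 0.27 in the shortest class to -0.08 in the longest.

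The direction of the counts followed which KO library was used. Without KO replicate 1, 26 members were higher and 9 lower (median log2 fold change 0.10), while 25.2% of all genes were called higher and 24.6% lower, 49.9% in all. Without KO replicate 2, 14 members were higher and 34 lower (median -0.12), while 27.6% of all genes were called higher and 26.5% lower, 54.1% in all. In these fits the lone KO library was assumed to vary as the WT libraries did. Without WT replicate 1 there were 15 calls (33.9% of all genes called) and without WT replicate 2 there were 17 (31.7% of all genes called). A set of 10 members kept its call in each of these 4 fits, namely *Ndufb2*, *Ndufv3*, *Ndufa9*, *Ndufab1*, *Cox7b* and *Cox8a*, which were higher, and *Ndufa12*, *Cox6c*, *Atp5j* and *Atp5j2*, which were lower. Whether exon length or another property of the libraries accounts for the difference between the KO replicates was not tested.

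**Figure D3:**
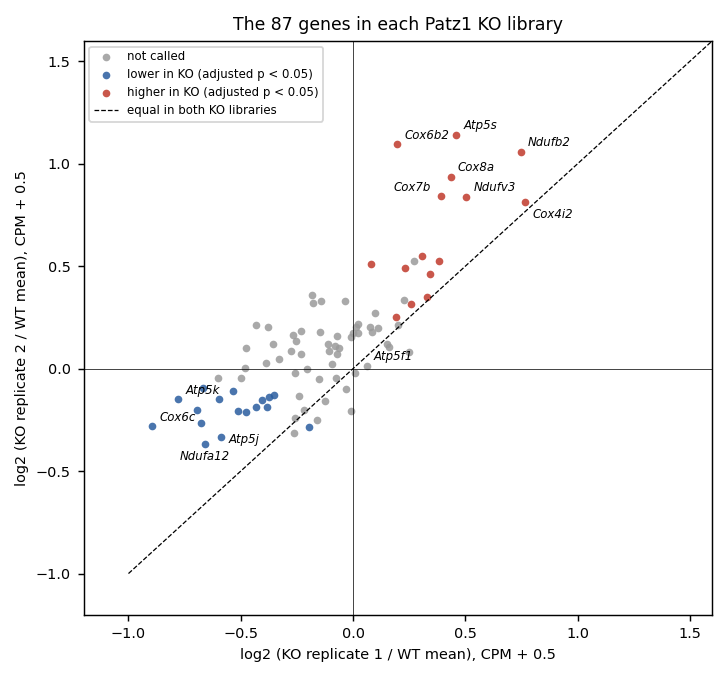
Log2 ratio of each KO library to the WT mean (CPM + 0.5) for the 87 genes, with KO replicate 1 on the horizontal and KO replicate 2 on the vertical axis and equality as a dashed line. Most points (76 of 87) lie above the line; the genes called higher keep positive ratios and those called lower negative ratios in both KO libraries, and the added 0.5 shrinks the ratio of *Cox4i2*.

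Complex I, which oxidizes NADH, had 35 tested subunits, of which 4 were higher and 4 were lower (median log2 fold change -0.01). All 8 belong to the supernumerary subunits, which surround the catalytic core and were 28 of the 35 tested. The share called was 28.6% of the supernumerary and 22.9% of all complex I subunits, below the 47.4% of all genes tested. *Ndufb2*, of the membrane arm, rose most among abundant members, with 56.2 and 51.4 CPM in the WT libraries and 90.5 and 113 CPM in the KO libraries (log2 fold change 0.92 ± 0.11 (SE), adjusted p = 1.80e-06, edgeR quasi-likelihood test). Both KO libraries lay well above both WT libraries, and the fold change was 1.07 without KO replicate 1 and 0.76 without KO replicate 2. *Ndufv3*, an accessory subunit beside the NADH-binding flavoprotein, was at 96.4 and 81.2 CPM in the WT libraries and 126 and 159 CPM in the KO libraries (log2 fold change 0.68 ± 0.11 (SE), adjusted p = 6.32e-05), again without overlap. *Ndufa9*, which sits where the 2 arms of the complex meet, had 109.5 and 111 CPM in the WT libraries and 137 and 161 CPM in the KO libraries (log2 fold change 0.43 ± 0.09 (SE), adjusted p = 9.65e-04), and *Ndufab1*, the mitochondrial acyl carrier protein, had 21.3 and 21.2 CPM in the WT libraries and 27.9 and 30.9 CPM in the KO libraries (log2 fold change 0.46 ± 0.11 (SE), adjusted p = 0.00267). For each of the 4 genes the lower KO library stood above the higher WT library. The count of *Ndufb2* carries a limit, since 33.5% of its 50-base stretches occur in other annotated transcripts, mostly of the overlapping gene *Gm42420*.

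The lower subunits of complex I were led by *Ndufa12*, an accessory subunit of the NADH-oxidizing arm, with 201 and 209 CPM in the WT libraries and 129.5 and 158 CPM in the KO libraries (log2 fold change -0.51 ± 0.10 (SE), adjusted p = 3.55e-04, edgeR quasi-likelihood test). Its KO values did not reach the WT values in either library, although 26.2% of its 50-base stretches are shared with the pseudogene *Gm15920*. *Ndufa2*, an accessory subunit of the same arm, was at 114 and 103 CPM in the WT libraries and 77.6 and 93.3 CPM in the KO libraries (log2 fold change -0.34 ± 0.10 (SE), adjusted p = 0.00896), and *Ndufb9*, a membrane-arm subunit, at 147 and 138 CPM in the WT libraries and 106 and 125 CPM in the KO libraries (log2 fold change -0.31 ± 0.10 (SE), adjusted p = 0.0127). The call of *Ndufa2* was lost without WT replicate 1, and that of *Ndufb9* in each fit without 1 library except the fit without KO replicate 2. *Ndufs6*, a zinc-binding subunit, had a log2 fold change of -0.28 (adjusted p = 0.0361), and its call was lost without KO replicate 1 or WT replicate 1. For *Ndufb9*, 23.4% of the 50-base stretches occur in other annotated transcripts.

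Of the 7 nuclear-encoded catalytic core subunits of complex I, 0 were called by the edgeR quasi-likelihood test and 0 by DESeq2. Of all genes, 47.4% of those tested by edgeR and 32.4% of those with an adjusted p by DESeq2 were called. Among the 7, 2 (*Ndufs1* and *Ndufs8*) had an unadjusted p below 0.05 by the edgeR test. *Ndufv1*, which binds NADH, was at 135 and 114 CPM in the WT libraries and 125 and 122 CPM in the KO libraries (log2 fold change -0.01, 95% interval -0.20 to 0.19). *Ndufs1*, with several of the iron-sulfur clusters, was at 134 and 144 CPM in the WT libraries and 124 and 116 CPM in the KO libraries (log2 fold change -0.20, 95% interval -0.39 to -0.02, adjusted p = 0.0619 by the edgeR test). The groups overlapped for *Ndufv1* and did not for *Ndufs1*, which passed the threshold when KO replicate 1 was left out. Of 7 *Ndufaf* assembly factors 2 were higher and 0 lower by the edgeR test, while 24.0% of all genes tested were higher and 23.4% lower. They were *Ndufaf3* (log2 fold change 0.41, adjusted p = 0.0107) and *Ndufaf5* (log2 fold change 0.35, adjusted p = 0.0267), each lost when either WT library was left out.

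*Ndufs5*, another complex I subunit, was listed at 0 in all 4 libraries. Its transcript shares 41.2% of its 50-base stretches with *BC002163*, which had 174 and 187 counts in WT and 162 and 206 counts in KO. Whether that sharing bears on the 0 was not tested, and the assembly factor genes *Sco2* and *Pet117* were also listed at 0 in all libraries.

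Complex II, succinate dehydrogenase, is also an enzyme of the TCA cycle. Its flavoprotein *Sdha* was at 184 and 176 CPM in the WT libraries and 157 and 148 CPM in the KO libraries (log2 fold change -0.24 ± 0.09 (SE), adjusted p = 0.0290, edgeR quasi-likelihood test). Both KO libraries were below both WT libraries, and the call was lost without WT replicate 1 or WT replicate 2. The iron-sulfur subunit *Sdhb* was at 154 and 150.4 CPM in the WT libraries and 137 and 147 CPM in the KO libraries (log2 fold change -0.10, 95% interval -0.28 to 0.08). The membrane anchors *Sdhc* and *Sdhd* had log2 fold changes of 0.02 and -0.04 and were not called.

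Complex III, which passes electrons from ubiquinol to cytochrome c, had 8 tested subunits, with 1 higher and 2 lower. The share called was 37.5%, against 47.4% of all genes tested. The structural core protein *Uqcrc2* was at 160.1 and 153 CPM in the WT libraries and 179 and 187 CPM in the KO libraries (log2 fold change 0.22 ± 0.09 (SE), adjusted p = 0.0411, edgeR quasi-likelihood test), without overlap. *Uqcrb*, which lies near a ubiquinone-binding site, was at 183 and 189.5 CPM in the WT libraries and 123 and 168 CPM in the KO libraries (log2 fold change -0.36 ± 0.11 (SE), adjusted p = 0.0150), and the small subunit *Uqcr10* at 128 and 119.6 CPM in the WT libraries and 78.0 and 116 CPM in the KO libraries (log2 fold change -0.36 ± 0.13 (SE), adjusted p = 0.0300). The 2 lower genes stood much lower in KO replicate 1 than in KO replicate 2. Both calls were lost without KO replicate 1, that of *Uqcrb* also without WT replicate 2 and that of *Uqcr10* also without WT replicate 1. The call of *Uqcrc2* was lost without WT replicate 1 or WT replicate 2. Of the 50-base stretches of *Uqcrb*, 43.4% occur in other annotated transcripts. For *Uqcrc2*, 24.8% are shared with *Pdzd9*, which overlaps it on the opposite strand. *Uqcrfs1*, the Rieske iron-sulfur protein, was at 132 and 128 CPM in the WT libraries and 129 and 145 CPM in the KO libraries, with overlapping groups (log2 fold change 0.07, 95% interval -0.11 to 0.26).

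Complex IV, cytochrome c oxidase, had 11 widely expressed subunits tested, and 3 were higher while 3 were lower (median log2 fold change 0.11). All 11, called or not, are nuclear-encoded subunits around the mitochondrially made catalytic core, since only nuclear genes were chosen. The share called was 54.5%, against 47.4% of all genes tested. *Cox8a* was at 211 and 201 CPM in the WT libraries and 278 and 394 CPM in the KO libraries (log2 fold change 0.71 ± 0.12 (SE), adjusted p = 1.28e-04, edgeR quasi-likelihood test) and *Cox7b*, on the X chromosome, at 270.4 and 262 CPM in the WT libraries and 349 and 477 CPM in the KO libraries (log2 fold change 0.63 ± 0.12 (SE), adjusted p = 2.79e-04). Both genes were higher in each KO library than in either WT library. The fold change of *Cox8a* was 0.94 without KO replicate 1 and 0.44 without KO replicate 2, and that of *Cox7b* was 0.84 without KO replicate 1 and 0.40 without KO replicate 2, so the size changed with the library and the direction did not. *Ndufa4*, once assigned to complex I and now placed in complex IV, was at 333 and 317 CPM in the WT libraries and 343 and 464 CPM in the KO libraries (log2 fold change 0.31 ± 0.12 (SE), adjusted p = 0.0372), a call kept among the 4 fits only in the one without KO replicate 1.

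Against these, *Cox6c* was at 288 and 278 CPM in the WT libraries and 152 and 233 CPM in the KO libraries (log2 fold change -0.56 ± 0.13 (SE), adjusted p = 0.00224, edgeR quasi-likelihood test). Neither KO library reached the WT values, and the fold change was -0.28 without KO replicate 1 and -0.89 without KO replicate 2, but the call was lost by the DESeq2 Wald test. Of the 50-base stretches of *Cox6c*, 21.1% occur in other annotated transcripts. *Cox7a2* was at 290.4 and 268 CPM in the WT libraries and 173 and 243 CPM in the KO libraries (log2 fold change -0.43 ± 0.12 (SE), adjusted p = 0.00701), and *Cox6b1*, which contacts the other monomer of the dimeric enzyme, at 349 and 329 CPM in the WT libraries and 234 and 315 CPM in the KO libraries (log2 fold change -0.31 ± 0.12 (SE), adjusted p = 0.0363). The call of *Cox7a2* was lost without WT replicate 1, and that of *Cox6b1* in each fit without 1 library except the fit without KO replicate 2. *Cox5a*, a subunit on the matrix side, was at 129.8 and 135 CPM in the WT libraries and 142 and 159.8 CPM in the KO libraries (log2 fold change 0.19, 95% interval 0.00 to 0.37) and passed the threshold without KO replicate 1. Within this complex, subunits that are assembled in equal number had measured fold changes from -0.56 to 0.71 on the log2 scale.

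**Figure D4:**
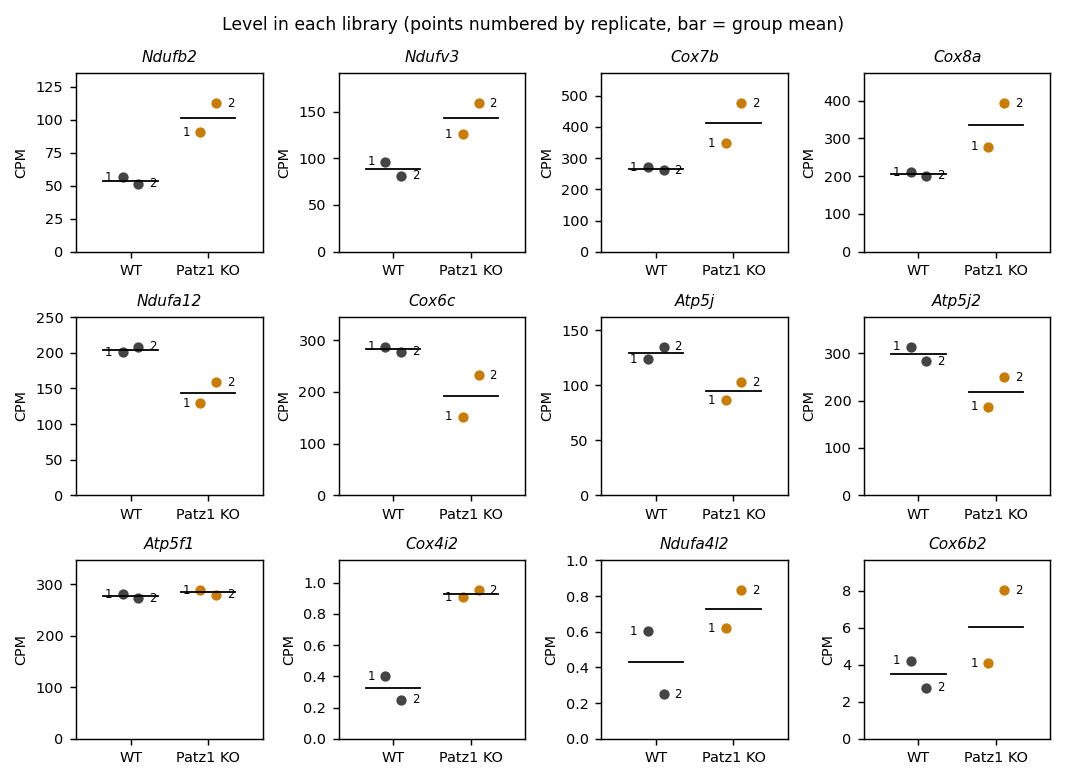
CPM in each library for 12 genes, with points numbered by replicate and bars at the group means. *Ndufb2*, *Ndufv3*, *Cox7b* and *Cox8a* were higher and *Ndufa12*, *Cox6c*, *Atp5j* and *Atp5j2* lower in both KO libraries than in both WT libraries, *Atp5f1* overlapped, and the bottom isoforms stayed at 8.04 CPM or less.

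Several complex IV subunits have tissue isoforms made from separate genes, and the common form made up nearly all of the level in these cultures. *Cox4i2*, an isoform known for its induction at low oxygen and its expression in lung, had 6 and 4 counts in WT and 22 and 16 counts in KO (log2 fold change 1.49 ± 0.53 (SE), adjusted p = 0.0277, edgeR quasi-likelihood test). It passed the count minimum through the KO libraries alone, which favours a higher KO value, and its call was lost without WT replicate 1 or WT replicate 2. Per exon length, *Cox4i2* made up 0.0856% and 0.0573% of the subunit 4 level in WT and 0.185% and 0.183% in KO. The rest was *Cox4i1*, at 494 and 461 CPM in the WT libraries and 516 and 547 CPM in the KO libraries (log2 fold change 0.15, adjusted p = 0.217).

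*Cox6b2*, the testis isoform of subunit 6B, had 63 and 44 counts in WT and 99 and 135 counts in KO (log2 fold change 0.76 ± 0.30 (SE), adjusted p = 0.0434, edgeR quasi-likelihood test). Although called, its CPM overlapped between groups, and the call was lost without KO replicate 2 or WT replicate 2. Its share of the subunit 6B level per exon length was 1.13% and 0.785% in WT and 1.62% and 2.35% in KO. *Ndufa4l2*, a paralogue of *Ndufa4* that is also known as a target of the hypoxia response, had 9 and 4 counts in WT and 15 and 14 counts in KO. It reached the count minimum through the KO libraries alone, and it was not called (log2 fold change 0.74, 95% interval -0.43 to 1.91). *Cox7a1*, the muscle isoform of subunit 7A, had 12 and 24 counts in WT and 28 and 23 counts in KO and was not called (log2 fold change 0.10, 95% interval -0.75 to 0.95). It made up 0.463% and 0.934% of the subunit 7A level in WT and 1.11% and 0.937% in KO.

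The remaining isoforms fell below the count minimum. The testis isoform *Cox7b2* had 5 and 4 counts in WT and 4 and 2 counts in KO, and the heart and muscle isoform *Cox8b* had 1 and 2 counts in WT and 0 in both KO libraries, where a count of 0 allows up to 3. The muscle isoform *Cox6a2* and the testis isoform *Cox8c* were at 0 in all 4 libraries, while *Cox6a1* stood at 216 and 198 CPM in the WT libraries and 209 and 238 CPM in the KO libraries (log2 fold change 0.11, 95% interval -0.09 to 0.31). *Cox7a2l*, a subunit 7A relative that joins complexes III and IV in supercomplexes, was at 223 and 208 CPM in the WT libraries and 253 and 303 CPM in the KO libraries (log2 fold change 0.37 ± 0.10 (SE), adjusted p = 0.00495, edgeR quasi-likelihood test). It was higher in each KO library than in either WT library, and the call was lost without WT replicate 2.

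Complex V, the ATP synthase, had 15 tested subunits, of which 7 were lower and 1 was higher, with a median log2 fold change of -0.24. The share called was 53.3%, near the 47.4% of all genes tested. The lower subunits lay outside the catalytic head. In the head and rotating stalk, 1 of 5 subunits was called, in the peripheral stalk 3 of 4 were lower, and in the membrane part 4 of 6 were lower. Of these lower subunits the DESeq2 Wald test did not call *Atp5h*, *Atp5o*, *Atp5g3* and *Atp5k*. Whether the parts differ was not tested. Exon length also differed between these genes. The lower *Atp5k*, *Atp5h*, *Atp5g3*, *Atp5o*, *Atp5j* and *Atp5j2* had 371 to 955 exon bases, and the lower *Atp5g1* had 4778. Of the genes not called lower, *Atp5a1*, *Atp5b* and *Atp5c1* had 1801 to 2471, *Atp5f1* 1604, *Atp5d* 931 and *Atp5e* 421. Whether exon length bears on these counts was not tested. The summed level of the complex was 5630.0 and 5411 CPM in the WT libraries and 4913 and 5394 CPM in the KO libraries. Without KO replicate 1 the complex had 3 lower and 2 higher subunits (median -0.10), and without KO replicate 2 it had 10 lower and 1 higher (median -0.35).

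The catalytic β subunit *Atp5b* was at 1234 and 1228 CPM in the WT libraries and 1205 and 1148 CPM in the KO libraries (log2 fold change -0.07, 95% interval -0.30 to 0.17). Its partner *Atp5a1*, the α subunit of the head, was at 1075 and 1014 CPM in the WT libraries and 1167 and 1125 CPM in the KO libraries (log2 fold change 0.13, 95% interval -0.10 to 0.36). Neither was called. *Atp5d*, the δ subunit of the rotating stalk, was the higher one, at 105 and 98.7 CPM in the WT libraries and 122 and 127 CPM in the KO libraries (log2 fold change 0.29 ± 0.09 (SE), adjusted p = 0.0108, edgeR quasi-likelihood test), a call lost without WT replicate 1 or WT replicate 2.

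*Atp5j*, coupling factor 6 of the peripheral stalk, was at 124 and 135 CPM in the WT libraries and 86.2 and 103 CPM in the KO libraries (log2 fold change -0.46 ± 0.10 (SE), adjusted p = 7.91e-04, edgeR quasi-likelihood test). *Atp5j2*, the f subunit of the membrane part, was at 314 and 283 CPM in the WT libraries and 187 and 249 CPM in the KO libraries (log2 fold change -0.46 ± 0.11 (SE), adjusted p = 0.00297). For both genes each KO library lay below each WT library, and the fold change of *Atp5j2* was -0.26 without KO replicate 1 and -0.67 without KO replicate 2. *Atp5k*, the e subunit that takes part in pairing of ATP synthase into dimers, was at 317 and 310.2 CPM in the WT libraries and 183 and 283 CPM in the KO libraries (log2 fold change -0.43 ± 0.14 (SE), adjusted p = 0.0145). Here KO replicate 1 alone lay far below WT, and the fold change was -0.15 without that library, where the call was lost, and -0.78 without KO replicate 2. *Atp5g1* and *Atp5g3*, genes for the same c subunit of the rotating ring, had log2 fold changes of -0.35 (adjusted p = 0.00833) and -0.24 (adjusted p = 0.0447). The third gene, *Atp5g2*, was not called (-0.26), and 87.4% of its 50-base stretches occur in the pseudogene *Gm10175*. *Atp5h* and *Atp5o*, subunits of the peripheral stalk, fell by 0.28 and 0.25 on the log2 scale (adjusted p = 0.0252 and 0.0431), and as with *Atp5g3* both calls held, among the 4 fits, only without KO replicate 2. The call of *Atp5g1* was lost without WT replicate 1. Of the 50-base stretches of *Atp5h* and *Atp5o*, 50.5% and 50.3% occur in other annotated transcripts. For *Atp5o*, 24.6% of the stretches occur in a second annotated entry of the same name that overlaps it on the same strand.

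*Atp5f1*, the b subunit of the peripheral stalk, was 1 of the 2 reference transcripts to which the study scaled RT-qPCR in these MNs, beside *Actb*. It was at 281 and 272 CPM in the WT libraries and 289 and 279 CPM in the KO libraries. The groups overlapped, with a log2 fold change of 0.04 and a 95% interval of -0.15 to 0.23. Of its 50-base stretches, 38.7% occur in other annotated transcripts. *Atp5s*, a factor that shares the name and was described as coupling factor B, had 65 and 55 counts in WT and 135 and 155 counts in KO (log2 fold change 0.90 ± 0.25 (SE), adjusted p = 0.00685, edgeR quasi-likelihood test). Its KO libraries lay above the WT libraries, and the call was lost without KO replicate 2.

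Promoters of these genes were compared by letters alone. RefSeq windows of 300 bases (250 before to 50 after the transcript start, GRCm38.p6) were given for 76 of the 92 members. The NRF1 motif GCGCANGCG was present, on either strand, in 28.9% of these 76 genes, against 14.6% of the 10486 tested genes with a window and 7.03% of all 27025 genes. The ETS motif CCGGAAG was present in 22.4% of members, 18.5% of tested genes and 9.93% of all genes. The core of the hypoxia response element, ACGTG, was present in 26.3%, 28.9% and 21.8%, and the G-rich motif GGGGAGGG, of the kind PATZ1 and MAZ bind, in 9.21%, 17.3% and 12.0%. Among members called lower, 6 of 13 held the NRF1 motif and 4 of 13 the ETS motif. Among members called higher 1 of 13 held each, and among those not called 14 of 47 and 12 of 47. The 6 lower genes with the NRF1 motif were *Ndufs6*, *Sdha*, *Atp5h*, *Atp5o*, *Atp5g3* and *Atp5k*. The DESeq2 Wald test called none of them. These are counts of letters in small groups, with no test, and a match is not evidence of binding.

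**Figure D5:**
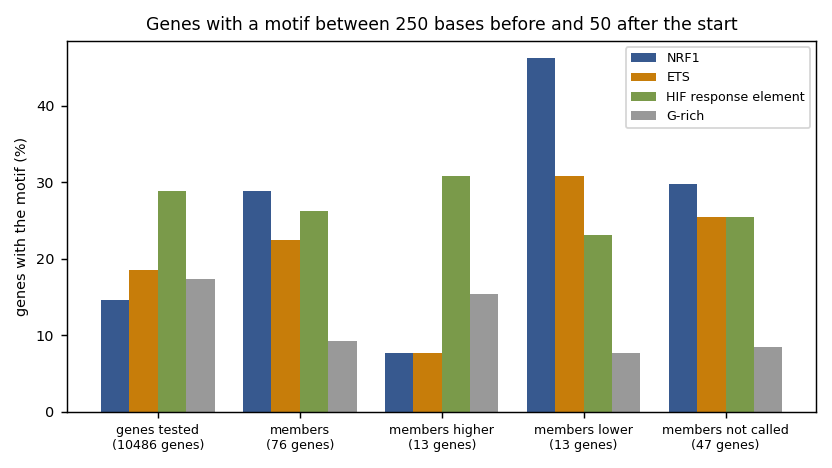
Percent of genes with each of 4 motifs in the 300-base window, for all tested genes with a window and for members by call. The NRF1 motif was found in 46.2% of members called lower, 7.69% of those called higher, 29.8% of those not called and 14.6% of tested genes.

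Windows of 5 members are shown. *Ndufb2*, *Cox8a* and *Atp5j* carry strong calls in either direction, *Sdha* is shown for its repeated NRF1 matches and *Atp5k* because it holds both motif types. Capitals mark matches to the NRF1 and ETS motifs on either strand. *Ndufb2* (chr6:39592315-39592614, plus strand) holds none, and *Cox8a* (chr19:7217567-7217866, minus strand) has 2 ETS matches, the nearer beginning 5 bases before the start. *Sdha* (chr13:74350191-74350490, minus strand) has 3 NRF1 matches that begin 98, 55 and 10 bases before the start. *Atp5k* (chr5:108434350-108434649, minus strand) has 1 match of each type, and *Atp5j* (chr16:84834927-84835226, minus strand) has 1 ETS match in this window. A second *Atp5j* window (chr16:84835576-84835875, minus strand), whose sequence is not shown, holds no NRF1 or ETS match. It has matches to the G-rich motif that begin 118 and 84 bases before its start.
Ndufb2: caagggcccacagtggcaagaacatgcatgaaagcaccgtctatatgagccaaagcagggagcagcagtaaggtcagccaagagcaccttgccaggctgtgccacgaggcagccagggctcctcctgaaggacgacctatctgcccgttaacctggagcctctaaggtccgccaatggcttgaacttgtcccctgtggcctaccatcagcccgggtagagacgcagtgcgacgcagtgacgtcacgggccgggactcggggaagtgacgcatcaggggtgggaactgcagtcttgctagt
Cox8a: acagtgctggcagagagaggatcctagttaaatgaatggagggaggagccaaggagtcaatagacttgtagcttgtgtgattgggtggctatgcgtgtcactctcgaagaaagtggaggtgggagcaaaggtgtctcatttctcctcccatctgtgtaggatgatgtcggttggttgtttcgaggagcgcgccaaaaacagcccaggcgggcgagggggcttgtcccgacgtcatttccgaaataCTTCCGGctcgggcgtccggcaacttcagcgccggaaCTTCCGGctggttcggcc
Sdha: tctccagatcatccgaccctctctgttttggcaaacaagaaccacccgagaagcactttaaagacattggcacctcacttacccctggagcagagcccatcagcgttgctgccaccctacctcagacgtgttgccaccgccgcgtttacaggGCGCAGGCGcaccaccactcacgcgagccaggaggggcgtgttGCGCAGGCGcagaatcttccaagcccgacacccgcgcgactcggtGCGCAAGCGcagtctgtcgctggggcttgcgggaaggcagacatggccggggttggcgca
Atp5k: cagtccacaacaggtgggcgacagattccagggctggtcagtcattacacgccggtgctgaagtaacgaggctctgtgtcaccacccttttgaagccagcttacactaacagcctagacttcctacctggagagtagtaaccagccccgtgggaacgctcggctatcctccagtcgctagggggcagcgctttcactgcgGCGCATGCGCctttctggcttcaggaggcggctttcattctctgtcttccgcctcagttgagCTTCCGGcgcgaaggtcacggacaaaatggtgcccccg
Atp5j: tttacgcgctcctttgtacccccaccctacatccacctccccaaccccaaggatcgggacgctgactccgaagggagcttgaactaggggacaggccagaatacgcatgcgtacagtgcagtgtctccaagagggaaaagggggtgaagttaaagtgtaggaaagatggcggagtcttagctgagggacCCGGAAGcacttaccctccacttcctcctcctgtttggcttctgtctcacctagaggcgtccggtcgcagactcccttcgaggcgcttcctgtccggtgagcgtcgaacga

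*Atp5j* and *Gabpa* form a head-to-head pair on chromosome 16, with *Gabpa* on the plus strand from base 84834925 and *Atp5j* on the minus strand from base 84835625 (GRCm38). *Gabpa* encodes the DNA-binding subunit of GABP, an ETS factor known for activating respiratory genes. It was at 69.4 and 74.6 CPM in the WT libraries and 45.3 and 42.3 CPM in the KO libraries (log2 fold change -0.72 ± 0.10 (SE), adjusted p = 8.36e-06, edgeR quasi-likelihood test), so both genes of the pair were lower in each KO library. Their annotated starts overlap, the libraries were stranded, and the strand setting of the counting is not given in the sources used here, so reads in the shared stretch may not have been separated.

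Other regulators of mitochondrial content changed in both directions, with 2 of 17 higher and 4 lower (35.3% called, against 47.4% of all genes tested). Besides *Gabpa*, the lower ones were *Tfam*, which packages mitochondrial DNA (log2 fold change -0.27), the coactivator gene *Pprc1* (-0.37) and *Peo1*, which encodes the mitochondrial DNA helicase (-0.43). The higher ones were *Esrra*, a nuclear receptor (0.40), and *Tfb1m*, a mitochondrial rRNA methyltransferase (0.65). *Nrf1* itself was at 58.6 and 59.4 CPM in the WT libraries and 56.1 and 51.8 CPM in the KO libraries and was not called (log2 fold change -0.13, 95% interval -0.33 to 0.07), and neither was *Ppargc1a* (-0.12, 95% interval -0.60 to 0.36).

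Of 36 tested assembly factors outside the *Nduf* names, 2 were higher and 2 lower (11.1% called, against 47.4% of all genes tested). They were *Sdhaf1* for complex II (log2 fold change 0.54), *Foxred1* for complex I (0.28), *Atpaf1* for complex V (-0.69) and *Lrpprc*, which stabilizes mitochondrial mRNAs (-0.34). Of 19 genes for electron carriers and coenzyme Q synthesis 4 were higher and 2 lower (31.6% called), among them *Coq10a* (0.94), *Coq9* (0.64) and *Coq7* (-0.53). *Cycs*, cytochrome c, was not called (0.14). The median over these lists was -0.01 and 0.12 on the log2 scale.

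In the TCA cycle 1 of 13 genes was higher and 2 were lower (23.1% called, against 47.4% of all genes tested). *Suclg1*, a succinyl-CoA ligase subunit, was at 81.7 and 81.4 CPM in the WT libraries and 123 and 135 CPM in the KO libraries (log2 fold change 0.66), and *Ogdh*, of the 2-oxoglutarate dehydrogenase complex, at 206 and 217 CPM in the WT libraries and 142 and 138 CPM in the KO libraries (-0.60). In both cases the groups did not overlap. Of 24 genes for mitochondrial import, chaperones and outer membrane proteins 1 was higher and 5 were lower (25.0% called). The chaperone genes *Hspd1*, *Hspe1* and *Hspa9*, which fold imported proteins, had log2 fold changes of -0.81, -0.93 and -0.52.

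Of 9 tested genes that tie respiration to oxygen supply, 6 were higher and 2 lower, with a median log2 fold change of 0.54. The share called was 88.9%, against 47.4% of all genes tested, in a list chosen with earlier results of these data known. *Pdk1*, which restrains entry of pyruvate into the TCA cycle, was at 13.8 and 13.4 CPM in the WT libraries and 89.5 and 97.1 CPM in the KO libraries (log2 fold change 2.78), and *Bnip3*, a mitophagy receptor, at 36.0 and 37.8 CPM in the WT libraries and 193 and 281 CPM in the KO libraries (2.68). Both were several times higher in each KO library than in WT. *Higd1a*, which binds complex IV, was higher (0.54), and *Lonp1*, the matrix protease, was lower (-0.23). *Hif1a*, the oxygen-regulated transcription factor subunit, was the other lower gene, at 221 and 239 CPM in the WT libraries and 191 and 172 CPM in the KO libraries (log2 fold change -0.34 ± 0.09 (SE), adjusted p = 0.00454, edgeR quasi-likelihood test), and its groups did not overlap.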

How the data were processed

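RNA-seq reads from 4 libraries (2 WT and 2 *Patz1* KO cultures of cervical MNs, rRNA-depleted stranded total RNA) had been assigned to genes by the authors. Per the labels the tools were TopHat2 2.1.1, Bowtie2 2.3.1 and featureCounts 1.6.2 on mm10, and the deposited values are raw counts per gene symbol. Annotation and strand setting are not given in the sources used here. Groups came from the genotype labels.

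Counts were scaled by TMM and tested with edgeR 4.0.16 (R 4.3.3) by the quasi-likelihood test, 2-sided, with Benjamini-Hochberg adjustment over the 14394 of 23420 genes that had at least 10 counts in at least 2 libraries. Calls used an adjusted p below 0.05. Depth was 14769104 to 23881522 counts, intervals are at the 95% level, and the common biological coefficient of variation was 7.71%. Replicates were independent differentiations according to the study's methods, and with 2 libraries per group p-values measure the spread between these cultures only. The scripts were tested on simulated data. DESeq2 1.42.0, other scalings and filters, a length and GC correction, and fits without each library were the alternatives.

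Exon lengths came from GENCODE (GRCm38) for 92 of 92 members, as the union of exons of transcripts with a RefSeq match. Stretches of 50 bases were compared with all annotated transcripts and their reverse complements. Log2 ratios between single libraries used CPM + 0.5. Members, gene lists and motifs were chosen with earlier results of these data known. Named genes were *Patz1*, the 3 members with the smallest p in each direction and complex, paralogue pairs, *Atp5f1*, core catalytic subunits, members below the count minimum and members whose call changed. Other called members and genes of the lists beyond that rule were named after their values were seen.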

Additional observations from a re-analysis of the deposited data

How the results depend on the processing

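The balance between higher and lower members depended on the library left out. Leaving out each library in turn gave 15 to 48 called members, 7 to 26 higher and 6 to 34 lower, and a median log2 fold change between -0.12 and 0.10. The DESeq2 Wald test called 18 members in all and 8 lower (32.4% of all genes with an adjusted p), and an adjusted p below 0.01 left 15, of which 8 were higher and 7 lower (34.5% of all genes). With the replicate number as a block, 37 members were called, 16 higher and 21 lower (50.9% of all genes), and none of the 32 calls was lost. Deviations of same-numbered libraries correlated at 0.03 over 14394 genes. With 2 libraries per group this 1 value cannot show whether same-numbered cultures were prepared together. With length and GC trends removed, 41 members were called, 19 higher and 22 lower (52.4% of all genes). Of the 32 called members 9 kept their call in all 14 alternative fits (6 higher, 3 lower). The *Cox4i2* share of subunit 4 in KO was 0.184% per exon length and 0.175% from unscaled counts. Among the 44 genes recomputed singly, signs turned only for 4 that were not called in the fit of all libraries. *Ndufv1* went from -0.01 to 0.02 with no filter and 0.00 by DESeq2 (0.015 and 0.003), and from -0.12 to 0.12 across fits without 1 library. *Uqcrfs1* ranged from 0.00 to 0.15 (lowest -0.003) and *Cox7a1* from -0.27 to 0.64 across those fits, and *Cox6a1* was -0.035 with length and GC trends removed. The causes were not tested. With at least 10 counts in every library, *Cox4i2* and *Ndufa4l2* had no value. Depth limits the isoforms with under 30 counts per library, where *Ndufa4l2* had an interval of -0.43 to 1.91 on the log2 scale.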
